A study of Mus musculus with 2 samples.

Results

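Chemokines and their receptors were examined in thymic epithelial cells of fetal mice. The genes were taken by symbol: every Ccl, Cxcl, Ccr, Cxcr or Ccrl gene with a number, plus Cx3cl1, Cx3cr1, Xcl1, Xcr1, Ccbp2 and Darc. This gave 62 of the 25791 genes listed, 38 encoding ligands and 24 encoding receptors. The cells came from fetal thymus at 15 days post coitum and had been sorted as CD45-, EpCAM+ and PDGFRa-. The library titled humanCD3eTg came from C57BL/6J x CBA/J mice and the library titled B6J from C57BL/6 mice. The title humanCD3eTg names a human CD3e transgene; the labels used here give neither its promoter nor the number of animals pooled. The study set thymic epithelium with thymocytes beside thymic epithelium without them. High copy numbers of that transgene are known to block T cell development, whereas the treatment field puts thymocytes with humanCD3eTg and their absence with B6J. The libraries are therefore called by their titles, and each direction is that of humanCD3eTg relative to B6J. There was 1 library of each kind, so no difference could be tested against a spread between mice, and strain and transgene cannot be told apart.

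Chemokines are small secreted proteins that guide cells along gradients by binding receptors coupled to G proteins. The fetal thymus makes none of its own lymphoid progenitors: they enter from the blood, drawn by CCL25, CCL21 and CXCL12, which act on CCR9, CCR7 and CXCR4. Later, CCL19, CCL21 and the CCR4 ligands CCL17 and CCL22 draw maturing thymocytes to the medulla. CXCL9, CXCL10 and CXCL11 are classical products of interferon signalling and act on CXCR3. Atypical receptors lack the usual G protein signal, and some of them bind chemokines and remove them from the surroundings.

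Values are FPKM, mapped fragments scaled for transcript length and for the library total. A log2 ratio is that of FPKM + 1 in humanCD3eTg over FPKM + 1 in B6J, and only genes averaging 1 FPKM or more over both libraries were used. A difference is counted as 2-fold when this log2 ratio is at least 1 in size. The low FPKM values fall on steps, from which about 15800000 fragments were estimated for humanCD3eTg and 19900000 for B6J. Ratios of FPKM below carry an approximate 95% interval from these fragments. It covers counting error only, not the spread between mice or sorts.

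Sorted-cell identity was checked with marker lists. Among 14 thymic epithelial markers Foxn1 was lower and Krt5 higher by 2-fold or more, and the median log2 ratio was -0.10. Epcam, the sort marker, stood at 231 FPKM in humanCD3eTg and 174 FPKM in B6J. RNA of other cells was present as well. Of 18 thymocyte markers 13 were used, and all 13 were lower (median -2.65). The summed level of the 18 was 14.7 FPKM in humanCD3eTg and 201 FPKM in B6J. Cd3d, Cd3g, Rag2 and Cd4 were listed at 0 in humanCD3eTg and Cd8a in B6J. The other summed levels, humanCD3eTg beside B6J, were 81.8 and 228 FPKM for 15 pan-leukocyte markers, 19.1 and 67.5 FPKM for 14 endothelial markers, and 21.8 and 30.3 FPKM for 16 macrophage and dendritic markers. For 10 neural crest and pigment markers they were 173.8 and 12.2 FPKM, and for 12 mesenchymal markers 279 and 243 FPKM. For 14 markers of NK, innate and B cells the sums were 63.1 and 129 FPKM, of which Id2 alone gave 58.7 and 55.8 FPKM. In the pan-leukocyte sums Arhgdib alone gave 64.9 and 117 FPKM. Pdgfra, the negative sort marker, stood at 0.348 FPKM in humanCD3eTg and 0.676 FPKM in B6J. Gzma and Nkg7, from the list of NK, innate and B cells, were listed at 0 in humanCD3eTg, against 56.6 and 5.17 FPKM in B6J. Gzmb, Klrb1c, Ncr1 and Klrd1 of that list were also listed at 0 in humanCD3eTg. In B6J they stood at only 0.123, 0.0826, 0.0397 and 0 FPKM. The part of these cells in the chemokine results was not tested. In bulk RNA, fewer cells of a type and less RNA per cell cannot be told apart.

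Of the 62 genes, 25 were used, 11 were listed at 0 in both libraries, 12 in humanCD3eTg alone and 1 in B6J alone. Of all 25791 genes, 5790 were listed at 0 in both, 1982 in humanCD3eTg alone and 645 in B6J alone. Among the 25, 9 were at least 2-fold lower in humanCD3eTg (36%), where 4.47% of all 13493 genes used were. A further 3 were higher by this amount (12%), beside 2.1% of all genes. The 9 were Ccl19, Ccl21a, Ccl21b, Ccl21c, Cxcl1, Cxcl9, Cxcl10, Cxcl11 and Cxcr4. The 3 were Cxcl14, Ccl7 and Ccl17. Ccl19 and Ccl17 enter these counts although each is listed at 0 in 1 library, where a 0 can be a failed estimate. Among the 9, Ccl19, Cxcl9 and Cxcl11 reached the mean of 1 FPKM through B6J alone. Among the 3, Ccl7 and Ccl17 reached it through humanCD3eTg alone. With a pseudocount of 5 FPKM, which shrinks the ratios of low genes, the counts were 3 and 1 of the 25. The share of all genes was not computed for that setting. The ligands used had a median log2 ratio of -0.38 over 20 genes and the receptors -0.25 over 5, beside -0.05 over all genes used. Lower by any amount were 16 of the 25, beside 7474 of all 13493 genes used.

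**Figure D1:**
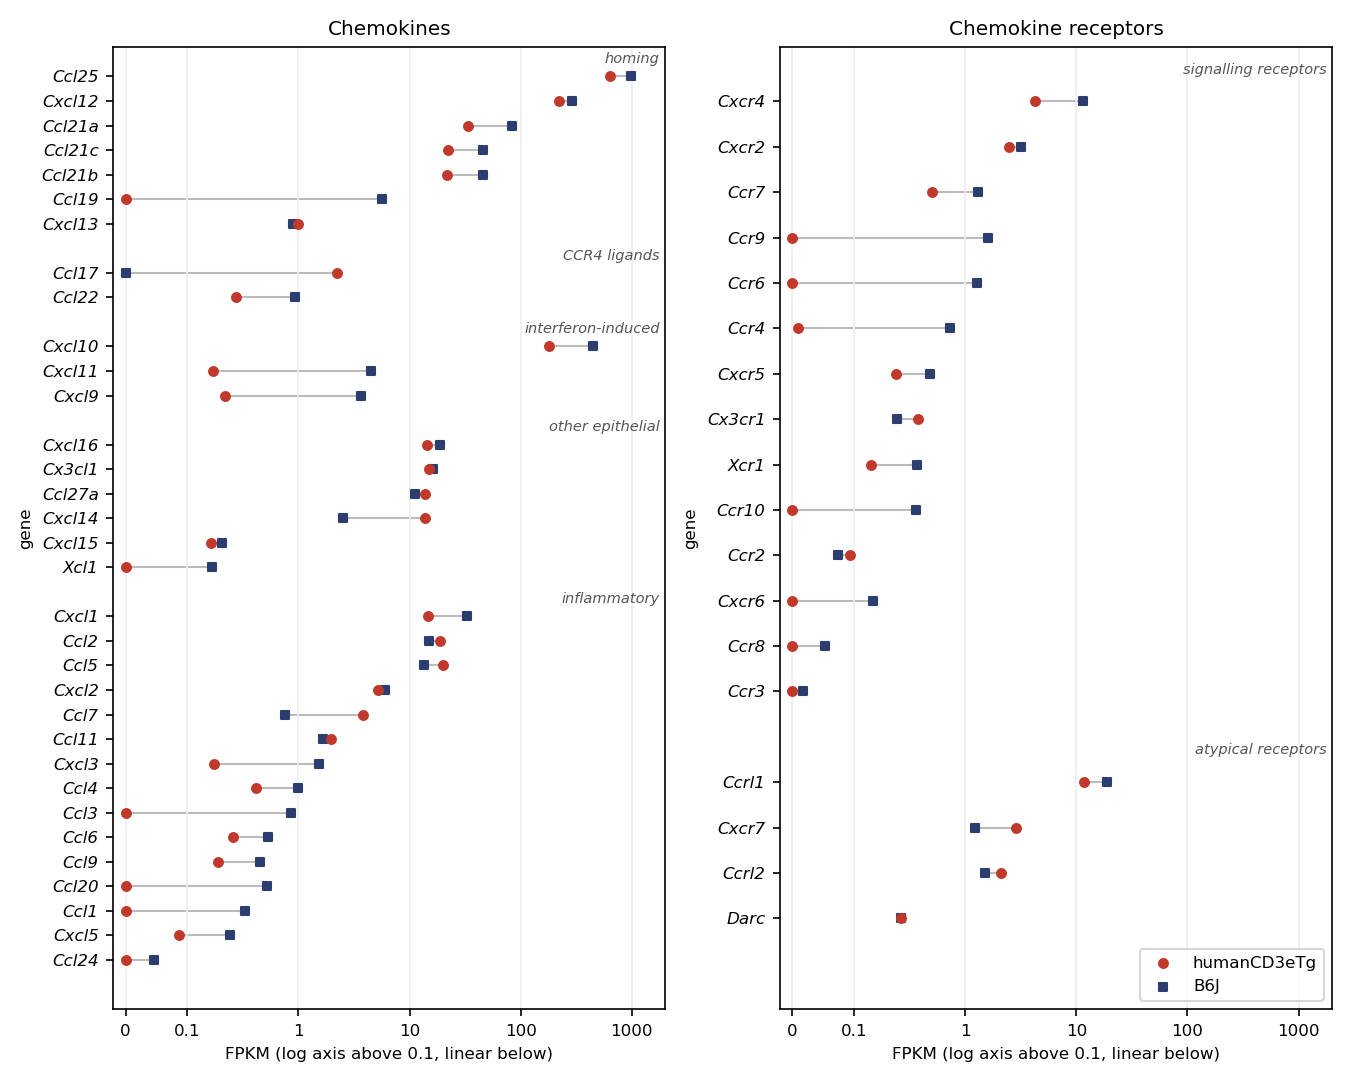
FPKM of each chemokine gene (left) and receptor gene (right) listed above 0 in at least 1 library; circles are humanCD3eTg, squares B6J, 1 library each, and a line joins the values of a gene. Ccl25, Cxcl10 and Cxcl12 stand above all other members in both libraries, at 632, 179.8 and 221 FPKM in humanCD3eTg and 977, 449.7 and 289 FPKM in B6J, while most receptors lie below 1 FPKM.

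Levels of ligand RNA were dominated by the same genes in both libraries. Ccl25, Cxcl12 and Cxcl10 together held 83.6% of the summed ligand FPKM in humanCD3eTg and 84.5% in B6J. Ccl25 alone held 51.1% in humanCD3eTg and 48.1% in B6J. Cxcl12 was next in humanCD3eTg with 17.9%, against 14.2% in B6J, and Cxcl10 was next in B6J with 22.1%, against 14.6% in humanCD3eTg. The order of Cxcl10 and Cxcl12 was thus opposite in the libraries. The ligand sum itself was 1235 FPKM in humanCD3eTg and 2031 FPKM in B6J.

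The homing ligands were lower in humanCD3eTg, and by unequal amounts. All 6 genes used here were lower, 4 of them by 2-fold or more, and their median log2 ratio was -1.03. With the near-identical Ccl21 copies summed, the 4 genes left were all lower, 2 of them by 2-fold or more, with a median of -0.90, and 1 of these 2 is Ccl19, listed at 0 in humanCD3eTg. Ccl25, whose product acts on CCR9 of thymic progenitors, stood at 632 FPKM in humanCD3eTg and 977 FPKM in B6J, a ratio of 0.647 (0.627 to 0.667). It ranked 181 among all genes listed in humanCD3eTg and 105 in B6J. Exons of Ccl25 overlap Elavl1 on the opposite strand (19.0 FPKM in humanCD3eTg, 20.2 FPKM in B6J), and whether strand was used in counting is not stated in the labels used here. Cxcl12, which retains and attracts progenitors through CXCR4, stood at 221 FPKM in humanCD3eTg and 289 FPKM in B6J. Its ratio was 0.764 (0.740 to 0.790). Both ratios lie beyond counting error and within 2-fold.

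Ccl21 transcripts were lower by a larger amount. CCL21 binds CCR7 and is made by medullary epithelium. Ccl21a stood at 33.5 FPKM in humanCD3eTg and 84.3 FPKM in B6J, a ratio of 0.398 (0.351 to 0.448). Ccl21b stood at 21.7 FPKM in humanCD3eTg and 45.5 FPKM in B6J, and Ccl21c at 22.1 FPKM in humanCD3eTg and 46.0 FPKM in B6J. These copies are nearly alike: 400 of 402 bases of the GENCODE M21 Ccl21b transcript match Ccl21a. Reads can therefore be split among them, and their separate values are uncertain. Summed, the copies stood at 77.3 FPKM in humanCD3eTg and 175.8 FPKM in B6J, a log2 ratio of -1.17. The log2 ratios of Ccl21b (-1.03) and Ccl21c (-1.03) are close to the 2-fold limit and came out inside it, with values from -0.99 to -0.91, after median centring, upper-quartile scaling, quantile normalization or with a pseudocount of 5.

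Ccl19, the other CCR7 ligand, was listed at 0 in humanCD3eTg, against 5.62 FPKM in B6J, about 60 fragments. Cxcl13, which attracts B cells through CXCR5, was near 1 FPKM in both libraries, at 0.988 FPKM in humanCD3eTg and 0.886 FPKM in B6J. The interval around its ratio of 1.11 (0.516 to 2.36) includes 1, so no difference was detectable at this depth.

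The CCR4 ligands stood on opposite sides. Ccl17 stood at 2.24 FPKM in humanCD3eTg, about 11 fragments, and was listed at 0 in B6J. Ccl22 stood at 0.275 FPKM in humanCD3eTg and 0.932 FPKM in B6J, a ratio of 0.295 (0.130 to 0.645), and did not reach the mean of 1 FPKM. The genes of both ligands are expressed by dendritic cells as well as medullary epithelium. Among 16 macrophage and dendritic markers 6 were used, 2 of them lower and 1 higher by 2-fold or more, and the part of such cells was not tested.

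All 3 interferon-induced ligands were at least 2-fold lower in humanCD3eTg. Cxcl9 and Cxcl11 passed the filter only through B6J, where they are high, so their place in this count is tied to that library. Cxcl10 stood at 179.8 FPKM in humanCD3eTg and 449.7 FPKM in B6J, a ratio of 0.400 (0.382 to 0.418). Cxcl9 stood at 0.219 FPKM in humanCD3eTg and 3.68 FPKM in B6J, resting on about 9 and 196 fragments, and its ratio was 0.0596 (0.0260 to 0.112). Cxcl11 stood at 0.169 FPKM in humanCD3eTg and 4.52 FPKM in B6J, or about 4 and 123 fragments, with a ratio of 0.0374 (0.0110 to 0.107). C57BL/6 mice are known to carry a Cxcl11 allele that gives no functional protein, so this value is one of RNA only. The intervals of Cxcl9 and Cxcl11 lie wholly below that of Cxcl10: Cxcl10 exceeded Cxcl9 819.9-fold in humanCD3eTg and 122-fold in B6J. Cxcl10 thus remained an abundant transcript in both libraries, whereas Cxcl9 and Cxcl11 exceeded 1 FPKM in B6J alone. Cxcr3, the receptor of all 3 products, was listed at 0 in both libraries. Exons of Cxcl10 overlap Art3 on the opposite strand, which stood at 1.31 FPKM in humanCD3eTg and 0.773 FPKM in B6J, and those of Cxcl11 overlap the pseudogene Gm2673.

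The promoters of Cxcl9 and Cxcl10 are shown because interferon is known to induce them. RefSeq windows of GRCm38.p6, from 250 bases before to 50 after the annotated start, were found for 46 of the 62 genes, Cxcl11 not among them. Capitals mark matches to the interferon-stimulated response element core GAAANNGAA, the gamma-activated site TTCNNNGAA and the NF-kB consensus, each searched on both strands. The Cxcl9 window is chr5:92328030-92328329, the Cxcl10 window chr5:92348840-92349139 and that of Cxcl14, a gene with the opposite direction, chr13:56296502-56296801, all on the minus strand and given 5′ to 3′ along the gene.
Cxcl9: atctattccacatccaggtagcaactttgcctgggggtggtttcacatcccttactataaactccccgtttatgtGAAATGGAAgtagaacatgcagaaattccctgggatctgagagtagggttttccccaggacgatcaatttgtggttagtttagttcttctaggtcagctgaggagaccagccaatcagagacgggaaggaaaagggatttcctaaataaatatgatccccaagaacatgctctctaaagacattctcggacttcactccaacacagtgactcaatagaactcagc
Cxcl10: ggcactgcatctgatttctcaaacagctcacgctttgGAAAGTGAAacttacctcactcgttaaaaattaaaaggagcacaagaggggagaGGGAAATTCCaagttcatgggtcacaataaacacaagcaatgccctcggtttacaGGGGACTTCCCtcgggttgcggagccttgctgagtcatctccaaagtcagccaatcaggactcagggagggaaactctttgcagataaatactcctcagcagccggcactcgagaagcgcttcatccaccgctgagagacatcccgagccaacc
Cxcl14: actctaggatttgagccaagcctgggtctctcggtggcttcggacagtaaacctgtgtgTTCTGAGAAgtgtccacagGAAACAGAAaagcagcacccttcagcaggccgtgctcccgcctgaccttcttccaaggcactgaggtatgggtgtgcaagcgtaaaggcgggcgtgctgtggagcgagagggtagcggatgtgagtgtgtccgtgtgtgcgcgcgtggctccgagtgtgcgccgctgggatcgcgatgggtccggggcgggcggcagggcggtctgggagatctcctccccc

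Cxcl9 and Cxcl10 each hold 1 match to the response element core, beginning at -175 and -213 from the start, and Cxcl10 holds 3 matches to the NF-kB consensus, of which the last 2 overlap. Cxcl14 holds a response element core (-172) and a gamma-activated site (-191). Of the 46 windows 8 hold the response element core (17.4%), 4 the gamma-activated site (8.70%) and 11 the NF-kB consensus (23.9%). Among 27025 windows of the same length these shares are 8.57%, 8.47% and 8.18%. A match is a string of letters and not a measured binding site, and the part of any match in the ratios was not tested.

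Genes of the interferon gamma pathway, which acts upstream of these ligands, were mostly lower in the same library. Of 12 genes 10 were used, and 9 of these were lower, beside 7474 of all 13493 genes used. The median log2 ratio of the 10 was -0.78, and 5 were at least 2-fold lower. They include Ciita, the activator of MHC class II genes (2.13 FPKM in humanCD3eTg, 13.3 FPKM in B6J), Ifngr1, a chain of the receptor (7.22 and 19.9 FPKM in the same order), Irf9 (8.58 and 19.7 FPKM) and Irf8 (22.4 and 45.9 FPKM). Irf1, the early response factor, stood at 137 FPKM in humanCD3eTg and 181 FPKM in B6J. Ifng itself, a product of lymphocytes, stood at 0.189 FPKM in humanCD3eTg and 1.24 FPKM in B6J. Thymocyte and pan-leukocyte markers moved the same way (medians -2.65 and -1.87), and their part was not tested.

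**Figure D2:**
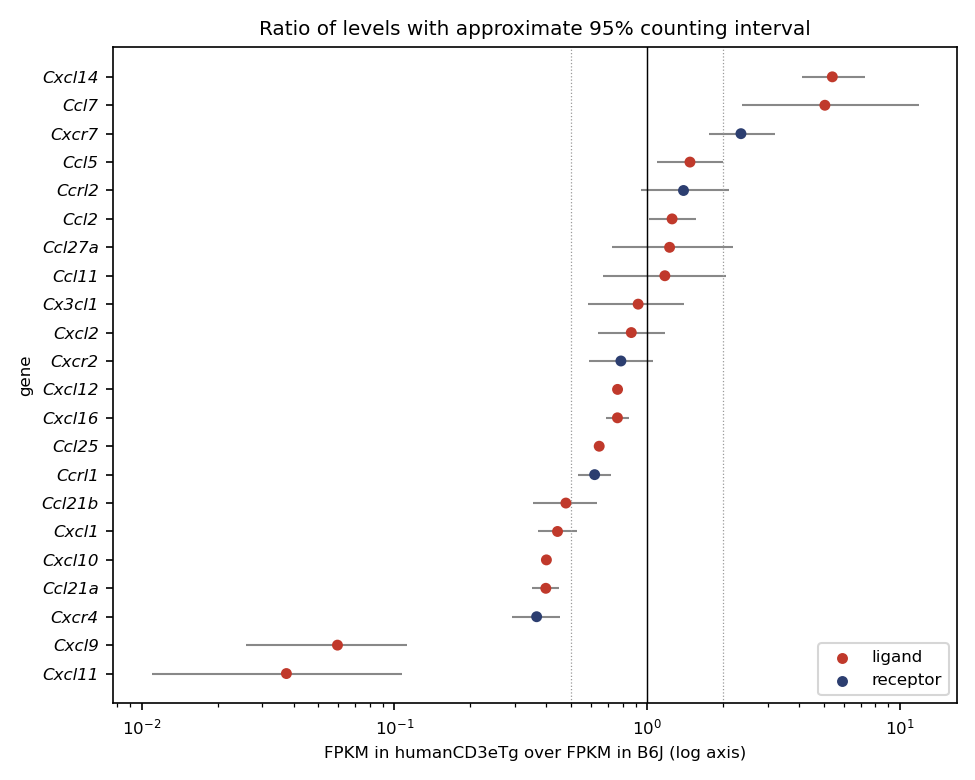
Ratio of FPKM in humanCD3eTg over B6J on a log axis for the 22 members with a mean of at least 1 FPKM, a value above 0 in both libraries and a transcript of known length; bars are approximate 95% intervals for counting error only, and dotted lines mark 2-fold. Of the 22 intervals, 11 lie below 1 and 5 above it, and those of Cxcl9 and Cxcl11 lie lowest. Intervals were computed for chemokine and receptor genes only, so these counts have no share of all genes beside them.

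Other ligands of epithelium had no common direction, with 2 of 4 used genes lower and 2 higher. Cxcl14, a chemokine of skin and other surface epithelia, stood at 13.6 FPKM in humanCD3eTg and 2.52 FPKM in B6J, a ratio of 5.41 (4.11 to 7.26) and the highest among the 22 ratios plotted. Neural crest and pigment markers moved in the same direction (10 of 10 higher, 9 at least 2-fold), and their part was not tested. Cxcl16, a transmembrane chemokine that binds CXCR6, stood at 14.5 FPKM in humanCD3eTg and 18.9 FPKM in B6J, a ratio of 0.763 (0.686 to 0.848), which is beyond counting error. Cxcl16 overlaps Zmynd15 on the opposite strand (1.96 FPKM in humanCD3eTg, 1.93 FPKM in B6J). Cx3cl1, the other membrane-anchored chemokine, stood at 14.8 FPKM in humanCD3eTg and 16.1 FPKM in B6J, a difference within counting error. So was that of Ccl27a, a skin-associated ligand of CCR10, at 13.7 FPKM in humanCD3eTg and 11.1 FPKM in B6J, which shares exon positions with Il11ra1 on the opposite strand. Cxcl15 and Xcl1 stayed under 0.3 FPKM in both libraries, and Cxcl17 and Ccl28 were listed at 0 in both.

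The inflammatory ligands showed no common direction. Of 18 genes 6 were used, 2 lower and 4 higher, and 1 passed 2-fold each way. Their median log2 ratio was 0.23. Cxcl1, a neutrophil attractant, stood at 14.5 FPKM in humanCD3eTg and 32.9 FPKM in B6J, a ratio of 0.442 (0.369 to 0.528). Cxcl2, its close relative, stood at 5.17 FPKM in humanCD3eTg and 5.97 FPKM in B6J, a ratio of 0.866 (0.637 to 1.18). The intervals of these neighbours do not overlap. Cxcl3, also of this family, stood at 0.175 FPKM in humanCD3eTg and 1.54 FPKM in B6J, a ratio of 0.114 (0.0115 to 0.403) from about 2 and 25 fragments. Their promoters hold the same NF-kB match, whose part in these ratios was not tested. It is shown in capitals in 60 bases of GRCm38.p6, plus strand, at chr5:90891149-90891208 (Cxcl1), chr5:90903777-90903836 (Cxcl2) and chr5:90786003-90786062 (Cxcl3).
Cxcl1: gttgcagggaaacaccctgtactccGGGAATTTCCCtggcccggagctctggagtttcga
Cxcl2: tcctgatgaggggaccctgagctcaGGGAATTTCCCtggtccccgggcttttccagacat
Cxcl3: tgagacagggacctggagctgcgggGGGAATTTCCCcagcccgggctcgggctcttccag

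In each of these windows the consensus matches on both strands, shifted by 1 base, so the capitals cover 2 overlapping matches.

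The 4 inflammatory CC chemokine genes used were higher in humanCD3eTg, 3 of them beyond counting error. Ccl7, a monocyte attractant, stood at 3.80 FPKM in humanCD3eTg and 0.753 FPKM in B6J, or about 36 and 9 fragments, with a ratio of 5.05 (2.38 to 11.9). Ccl2, the main monocyte attractant, stood at 18.7 FPKM in humanCD3eTg and 14.9 FPKM in B6J, a ratio of 1.26 (1.02 to 1.56). Ccl5, an attractant of T cells and monocytes, stood at 19.8 FPKM in humanCD3eTg and 13.4 FPKM in B6J, a ratio of 1.48 (1.10 to 1.99). Ccl2 and Ccl5 thus stood slightly beyond counting error and inside 2-fold. Ccl11, an eosinophil attractant, stood at 1.96 FPKM in humanCD3eTg and 1.67 FPKM in B6J, within counting error.

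All 7 inflammatory CC chemokine genes too low to be used but above 0 in a library lay on the lower side. No share of all genes was computed for this choice, and B6J is the deeper library. Ccl4 stood at 0.415 FPKM in humanCD3eTg and 0.986 FPKM in B6J, Ccl6 at 0.256 and 0.527 FPKM in the same order, and Ccl9 at 0.188 and 0.455 FPKM. The intervals of the Ccl4 (0.073 to 1.68) and Ccl6 (0.135 to 1.45) ratios include 1, and that of Ccl9 (0.157 to 0.920) does not. Ccl3, Ccl20 and Ccl1 were listed at 0 in humanCD3eTg and at 0.852, 0.525 and 0.332 FPKM in B6J, which is about 9, 6 and 2 fragments. Cxcl5 and Ccl24 stayed under 0.3 FPKM in both libraries, Ccl24 at a level that rounds to 0 fragments, and Ccl8, Ccl12 and Ccl26 were listed at 0 in both. Across all chemokine and receptor genes, 17 of the 37 not used reached 0.3 FPKM in a library, and of these 15 were lower (88.2%) and 2 higher in humanCD3eTg. Among all 3168 genes at this level 60.3% were lower.

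**Figure D3:**
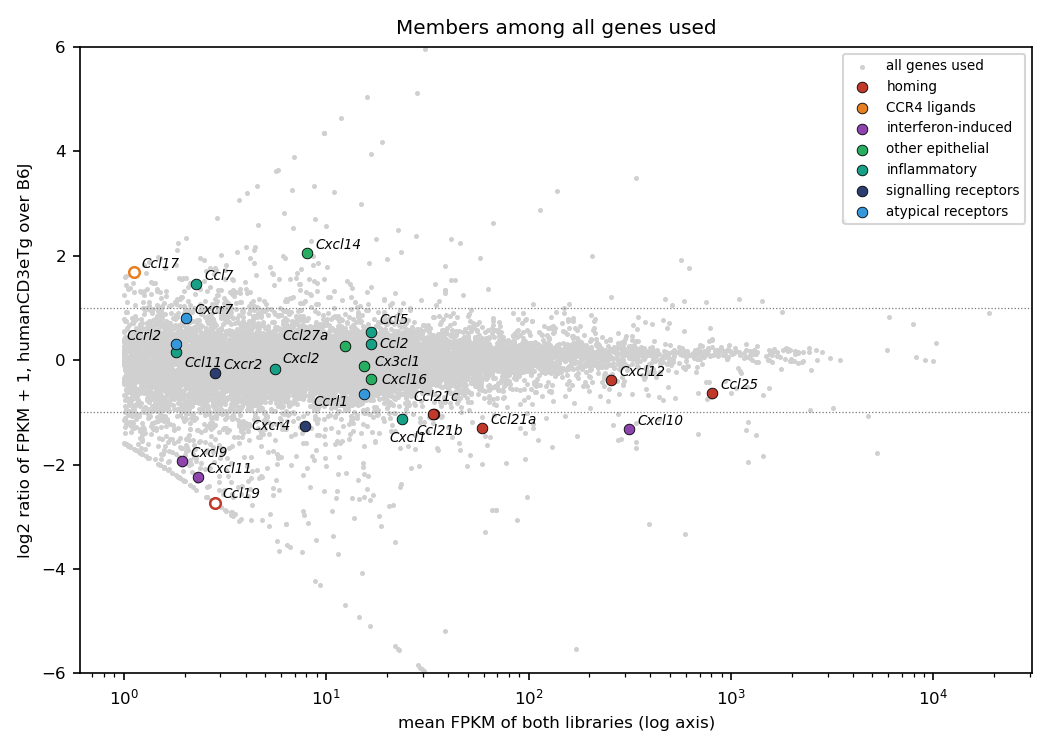
Log2 ratio of FPKM + 1 (humanCD3eTg over B6J) against mean FPKM on a log axis for all 13493 genes used (grey; 40 lie outside the range shown) and the 25 members used (colours by group); open symbols are members listed at 0 in 1 library and dotted lines mark 2-fold. The homing and interferon-induced ligands lie below 0, Cxcl14, Ccl7 and Ccl17 above the upper line.

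Receptor RNA was scarce. Of 24 receptor genes 5 reached 1 FPKM in humanCD3eTg and 8 in B6J, and 6 were listed at 0 in both libraries. The sum over all 24 was 25.1 FPKM in humanCD3eTg and 43.3 FPKM in B6J, beside ligand sums of 1235 and 2031 FPKM in the same order. Of the 5 receptors used 1 was lower by 2-fold or more and none higher by that amount.

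Among the signalling receptors Cxcr4 stood highest. Cxcr4, the CXCL12 receptor of most leukocytes and of endothelium, stood at 4.23 FPKM in humanCD3eTg and 11.6 FPKM in B6J, a ratio of 0.366 (0.292 to 0.454). Cxcl12 exceeded Cxcr4 52.2-fold in humanCD3eTg and 25-fold in B6J. Ccr9, the CCL25 receptor, was listed at 0 in humanCD3eTg, against 1.59 FPKM in B6J, about 76 fragments. Slc6a20a, which overlaps Ccr9 on the opposite strand, was likewise listed at 0 in humanCD3eTg, against 0.177 FPKM in B6J. Ccr7, the CCL19 and CCL21 receptor, stood at 0.499 FPKM in humanCD3eTg and 1.30 FPKM in B6J, a ratio of 0.384 (0.194 to 0.708). The receptors of all 3 homing signals were therefore on the lower side in humanCD3eTg, the library in which thymocyte, pan-leukocyte and endothelial markers were lower (medians -2.65, -1.87 and -1.61). The part of those cells was not tested.

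Receptors of later thymocytes and other lymphocytes mostly followed the same direction at low levels. Ccr6, the CCL20 receptor, was listed at 0 in humanCD3eTg, against 1.26 FPKM in B6J. Ccr4, the receptor of CCL17 and CCL22, stood at 0.00814 FPKM in humanCD3eTg and 0.735 FPKM in B6J. Cxcr5 stood at 0.235 FPKM in humanCD3eTg and 0.476 FPKM in B6J and overlaps Bcl9l, an opposite-strand gene at 8.30 FPKM in humanCD3eTg and 10.4 FPKM in B6J. Xcr1, a receptor of dendritic cells, stood at 0.143 FPKM in humanCD3eTg and 0.370 FPKM in B6J, and Ccr10 was listed at 0 in humanCD3eTg, against 0.361 FPKM in B6J. Cxcr2, the neutrophil receptor of CXCL1 and CXCL2, stood at 2.49 FPKM in humanCD3eTg and 3.16 FPKM in B6J, and Cx3cr1, a receptor of macrophages, at 0.379 FPKM in humanCD3eTg and 0.241 FPKM in B6J. The intervals of Cxcr5 (0.200 to 1.10), Cxcr2 (0.587 to 1.05) and Cx3cr1 (0.759 to 3.51) include 1. The Ccr4 value in humanCD3eTg rounds to 0 fragments, beside about 17 in B6J. Ccr2, Ccr3, Ccr8 and Cxcr6 stayed under 0.3 FPKM in both libraries, and Ccr1, Ccr1l1, Cxcr1 and Cxcr3 were listed at 0 in both.

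The atypical receptors differed among themselves. Ccrl1, also named Ackr4, takes up CCL19, CCL21 and CCL25 and is known from cortical thymic epithelium. It was the highest receptor gene of all 24, at 11.7 FPKM in humanCD3eTg and 18.9 FPKM in B6J, with a ratio of 0.620 (0.535 to 0.721). Its exons overlap Acad11 on the opposite strand, which was level at 23.7 FPKM in humanCD3eTg and 23.6 FPKM in B6J. Cxcr7, also named Ackr3, takes up CXCL12 and CXCL11 and stood at 2.87 FPKM in humanCD3eTg and 1.22 FPKM in B6J, a ratio of 2.35 (1.76 to 3.22). Cxcr7 thus stood opposite to Cxcr4, the signalling receptor of the same ligand. On FPKM + 1 its log2 ratio was 0.80, and it passed the 2-fold limit with a pseudocount of 0.1 (1.17). Ccrl2, which binds chemerin, stood at 2.12 FPKM in humanCD3eTg and 1.52 FPKM in B6J, and the interval of its ratio includes 1. Darc, the chemokine receptor of red cells and venules, stood at 0.264 FPKM in humanCD3eTg and 0.262 FPKM in B6J, with the same-strand gene Cadm3 overlapping it (0.207 FPKM in humanCD3eTg, 0.227 FPKM in B6J). Ccbp2, which clears inflammatory CC chemokines, was listed at 0 in both.

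Genes around the receptors and ligands gave further values. In the list of receptor signalling, 24 of 28 genes were used and 3 were at least 2-fold lower, with a median log2 ratio of -0.10. These were Rac2, a leukocyte GTPase (0.850 FPKM in humanCD3eTg, 10.1 FPKM in B6J), Grk5, a receptor kinase (7.38 and 18.6 FPKM in the same order), and Rgs16, which shortens G protein signals (8.29 and 19.0 FPKM). Pik3cd, the leukocyte form of PI3 kinase, stood at 0.698 FPKM in humanCD3eTg and 2.22 FPKM in B6J. Among 14 genes for gradients, processing and adhesion 3 were at least 2-fold lower, with a median of -0.40. They were Mmp9, a matrix protease (9.54 FPKM in humanCD3eTg, 42.9 FPKM in B6J), Vcam1, an adhesion molecule (18.9 and 79.9 FPKM), and Dpp4, which trims chemokine ends (0.884 and 3.36 FPKM). Icam1, another adhesion molecule, stood at 158.4 FPKM in humanCD3eTg and 239.0 FPKM in B6J.

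Genes of the non-canonical NF-kB pathway, known to act upstream of Ccl19 and Ccl21a in medullary epithelium, were also mostly lower. Of 12 such genes 10 were used, and 9 of these were lower, beside 7474 of all 13493 genes used. Of these 9, 3 passed 2-fold, and the median log2 ratio of the 10 was -0.61. Cd40, a receptor of medullary epithelium, stood at 2.40 FPKM in humanCD3eTg and 20.1 FPKM in B6J. The ligand genes Ltb and Tnfsf11, products of lymphoid cells, stood at 0.708 and 0.404 FPKM in humanCD3eTg and at 5.27 and 3.0 FPKM in B6J. Relb, the transcription factor at the end of this pathway, stood at 32.0 FPKM in humanCD3eTg and 60.8 FPKM in B6J. Of 8 genes of thymic epithelial function 2 were at least 2-fold lower: Foxn1, known to drive Ccl25 and Cxcl12, at 43.7 FPKM in humanCD3eTg and 91.1 FPKM in B6J, and Aire, the regulator of self-antigens in the medulla, at 0.0366 FPKM in humanCD3eTg and 7.53 FPKM in B6J. Dll4, the Notch ligand of cortical epithelium, stood at 26 FPKM in humanCD3eTg and 38.9 FPKM in B6J, and the protease gene Prss16 at 992.4 FPKM in humanCD3eTg and 1409 FPKM in B6J. Medullary markers went both ways. Of 11 such markers 9 were used, 6 lower and 3 higher (median -1.25), and the higher ones were Krt5, at 955.5 FPKM in humanCD3eTg and 280.2 FPKM in B6J, Cldn3, at 12.7 FPKM in humanCD3eTg and 5.49 FPKM in B6J, and Cldn4, at 262 FPKM in humanCD3eTg and 144 FPKM in B6J. Markers of thymocytes, leukocytes and endothelium were lower in the same library as the NF-kB list, and their part was not tested.

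**Figure D4:**
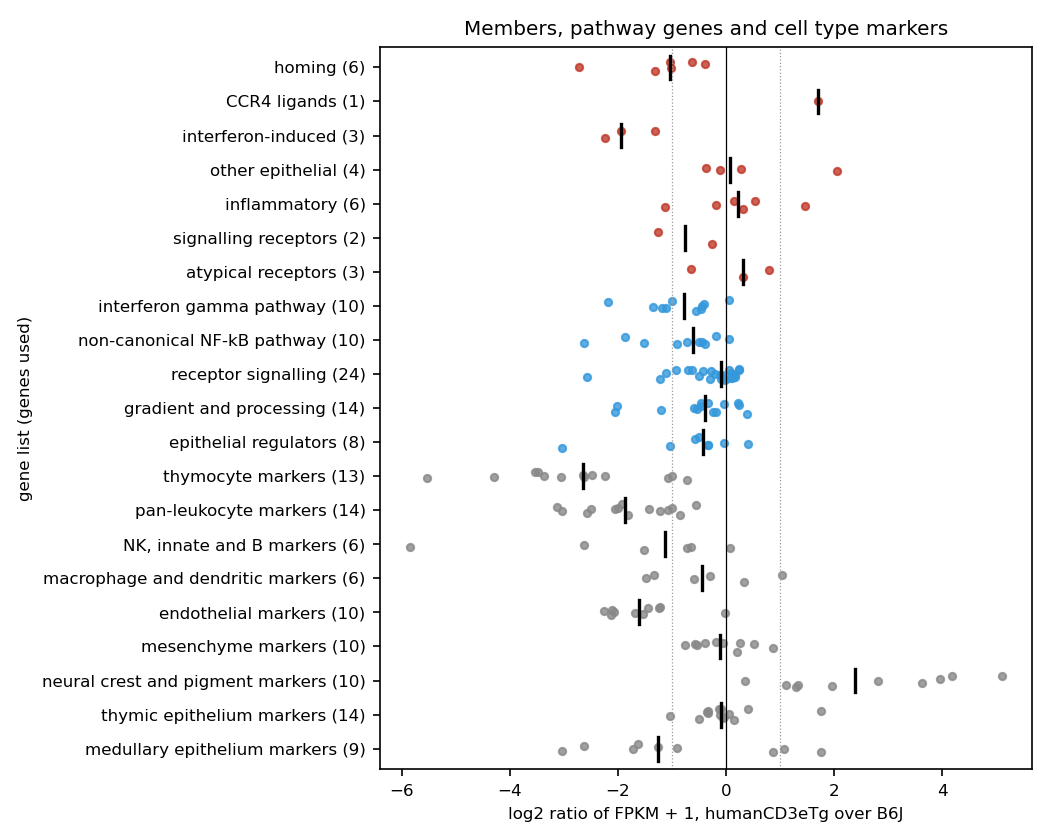
Log2 ratio of FPKM + 1 (humanCD3eTg over B6J) of each gene used, by list, with the number of genes in brackets and the list median as a black bar; red are chemokine and receptor groups, blue pathway lists, grey cell type markers, and dotted lines mark 2-fold. The homing (-1.03) and interferon-induced (-1.94) medians lie between those of thymic epithelial markers (-0.10) and thymocyte markers (-2.65). Ccl19, Cxcl9 and Cxcl11 passed the filter through B6J alone.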

How the data were processed

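RNA of 1 library per group was analysed. The authors deposited 1 FPKM value per gene symbol and library; the labels' protocols name TRIzol extraction of total RNA and Illumina TruSeq libraries. Per the submitters' processing notes, which state no roles, the tools were TopHat2 2.0.8, Bowtie2 2.1.0 and Cufflinks 2.1.1 and the build was mm9. Annotation, filters and use of strand: not given in the sources used here.

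Log2 ratios used a pseudocount of 1 FPKM, which understates differences of low genes, and a value of at most 0.001 FPKM counts as listed at 0. With 1 library per group no p-value was computed. Members and lists were chosen with earlier results of these data known. Every member with a mean of at least 1 FPKM, and the homing, CCR4, interferon-induced and atypical groups whatever their values, were named, and from pathway lists the genes at least 2-fold different with the next by size, up to 4. Irf1, Ifng and the genes that overlap members were added after their values were seen. Some genes that this rule names are not reported here.

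Depth was estimated from low FPKM values of genes with 1 GENCODE M21 transcript, less 210 bases: 1 fragment over 1 kb was worth 0.0631 FPKM in humanCD3eTg and 0.0502 in B6J. Of 413 and 543 such genes, 55.2% and 54.0% lay no more than 0.1 from a whole number of fragments, where an even spread gives 20%, so fragments are approximate and no count test was run. Fragments per gene used its shortest coding transcript in the basic set, and intervals of ratios are exact binomial ones on rounded fragments. For genes with transcripts of several lengths, a longer transcript would give more fragments and narrower intervals. The log2 ratio and its 2-fold limit, but not the intervals, were run on simulated data. These held 4-fold changes, counting error only and equal depth in both libraries. The run therefore does not check differences near 2-fold or the unequal depths here. Computations used Python 3.11.15, pandas 2.3.3 and scipy 1.17.1.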

Additional observations from a re-analysis of the deposited data

How the results depend on the processing

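No chemokine or receptor gene averaging 1 FPKM or more reversed its direction under median centring, upper-quartile scaling or quantile normalization. Pseudocounts of 0.1 and 5 and summed Ccl21 copies were also run for single genes. A pseudocount cannot reverse a direction, and summing the copies leaves the other genes unchanged. The count of genes at least 2-fold lower (9 of 25) was 9 of 25 with a pseudocount of 0.1 and 3 of 25 with 5. It was 7 of 25 under median centring, upper-quartile scaling or quantile normalization. With summed Ccl21 copies it was 7 of 23, and 8 of 23 without members listed at 0 in 1 library. It was 12 of 62 with no filter and 6 of 16 among genes averaging 5 FPKM or more. At limits of 1.5-fold and 4-fold, 11 and 2 of 25 were lower. The count at least 2-fold higher (3 of 25) was 1 of 25 with a pseudocount of 5 and 1 of 16 among genes averaging 5 FPKM or more. At a limit of 4-fold, 1 of 25 was higher. Shares of all genes were computed for the main setting only, so the other counts have none beside them. With a pseudocount of 5, 8 genes lost the 2-fold limit, Cxcl9, Cxcl11 and Cxcr4 among them, as the construction of that ratio shrinks low values. The median log2 ratio of receptors (-0.25) was -0.12 with a pseudocount of 5, -0.049 with no filter (24 genes), -0.11 with quantile normalization and -0.96 over the 2 averaging 5 FPKM or more. No spread between replicates exists, so a median was counted as moved beyond 1.5 times. No paired analysis was possible because each group has 1 library.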

Other observations

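Chemoattractants whose symbols fall outside the chosen names showed no 2-fold difference on FPKM + 1 among 8 genes used (median log2 ratio 0.20). The largest log2 ratio, 0.89, was that of Pf4, a low gene whose difference the pseudocount of 1 understates. Mif, a cytokine that also binds chemokine receptors, stood at 742 FPKM in humanCD3eTg and 667 FPKM in B6J, in the range of Ccl25. The platelet chemokine genes Pf4 and Ppbp stood at 2.30 and 0.792 FPKM in humanCD3eTg and at 0.780 and 0.228 FPKM in B6J. Rarres2, which encodes chemerin, stood at 8.21 FPKM in humanCD3eTg and 6.00 FPKM in B6J, and Cmtm7 at 19.3 FPKM in humanCD3eTg and 34.9 FPKM in B6J.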
